A study of Mus musculus with 4 samples.

Results

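Regional identity along the small intestine was examined through 8 transcription factor genes, Gata4, Gata6, Onecut2, Cdx1, Cdx2, Hnf4a, Hnf4g and Pdx1, of the 32227 genes in the feature lists. They were chosen by name, as factors known to set position along the gut tube or to maintain the intestinal epithelial programme. The choice was made with earlier results of these data known. All 8 were present in the feature lists under identifiers ENSMUSG00000021944, ENSMUSG00000005836, ENSMUSG00000045991, ENSMUSG00000024619, ENSMUSG00000029646, ENSMUSG00000017950, ENSMUSG00000017688 and ENSMUSG00000029644, in the order above. Their levels were followed in the jejunum and in the ileum in 3 kinds of epithelial cell: cells with stem markers, cells in the cell cycle, and cells with enterocyte markers.

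The small intestine is a single tube whose segments take up different nutrients, and the absorptive cells of each segment carry a programme that is partly fixed by transcription factors already active in the crypt, where stem cells divide. GATA4 is known for its presence in the duodenum and jejunum and its absence from the terminal ileum, and its loss from the jejunum is known to permit ileal genes there, while GATA6 is present along the whole intestine. CDX1 and CDX2 are caudal-type homeobox factors that keep endoderm intestinal, HNF4A and HNF4G are paralogous nuclear receptors that drive enterocyte genes, ONECUT2 is a cut-homeodomain factor of the foregut and proximal intestine, and PDX1 is best known from the pancreas and duodenum.

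The samples came from wild-type mice at postnatal day 6 (P6), before weaning, with no transgene or treatment in any group. From each of 2 mice, a short segment of jejunum and one of ileum were taken, the epithelium was released with EDTA and dissociated with dispase, and each segment was made into 1 single-cell RNA library by particle-templated partitioning (PIPseq, 3′ ends). This gave 2 ileum and 2 jejunum libraries, with replicate 1 of each region from the mouse labelled male in batch 1 and replicate 2 from the mouse labelled female in batch 2. Mouse, batch and labelled sex therefore cannot be told apart, but each mouse gave both regions, so every per-mouse value below is also a within-batch value.

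Levels are unique molecular identifiers (UMIs, each standing for 1 captured RNA molecule) summed over the cells of a class in 1 library and expressed as counts per 1000000 UMIs of that class (CPM). Of 30538 cells that passed the filters on genes and mitochondrial share, 29127 had at least 2000 UMIs and were sorted into classes at an equal depth of 2000 UMIs. At that depth, a cycling cell showed at least 5 of 35 cell cycle genes, a stem-marker cell at least 5 of 24 stem cell genes without reaching the cycling limit, and an enterocyte-marker cell at least 9 of 20 enterocyte genes without reaching either. Enterocyte-marker cells numbered 6396 and 7555 in the 2 ileum libraries and 7618 and 4922 in the 2 jejunum libraries. Cycling cells numbered 385, 315, 388 and 387, and stem-marker cells 49, 71, 71 and 48, in the same order. The classes are marker counts, not sorted populations: 10.2 to 12.2% of ileal and 22.2 to 24.0% of jejunal cycling cells, and 16.9 to 24.5% of ileal and 29.6 to 39.6% of jejunal stem-marker cells, also reached the enterocyte minimum. Cycling cells often met the stem minimum too, with a median of 5 stem cell genes in each of the 4 libraries. Comparisons of stem-marker with cycling cells therefore set non-cycling against cycling cells, and not stem against non-stem cells.

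Whole libraries differed with region. Total UMIs were 125062986 to 131395559 in the ileum and 57946770 to 64386928 in the jejunum, and the median mitochondrial share per kept cell was 3.61 to 3.74% against 6.38 to 9.94%. In the cycling cells, median depth was close between regions, at 4963 and 4977 UMIs per ileal cell and 4886 and 6423 UMIs per jejunal cell. No pair of libraries shared more than 1 cell barcode. Xist was high in both libraries of the mouse labelled male and Eif2s3y in both of the mouse labelled female, so all 4 libraries went against their sex label while the 2 libraries of each mouse went together.

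The starts of regionally expressed genes are shown first, because they are the kind of sequence on which these factors act. The 3 windows run from 250 bases before to 50 bases after the annotated start (RefSeq, GRCm38.p6, a different build from the GRCm39 of the files) and belong to the absorptive genes with the largest called regional difference in the lists described further on: Fabp1, a cytosolic fatty acid binding protein (chr6:71199629-71199928, plus strand), Cd36, a fatty acid uptake protein (chr5:17835847-17836146, minus strand), and Fabp6, the ileal bile acid binding protein (chr11:43601513-43601812, minus strand). Capitals mark letters that match a GATA motif (GATAA) or a CDX motif (TTTATNG), each searched on both strands.
Fabp1: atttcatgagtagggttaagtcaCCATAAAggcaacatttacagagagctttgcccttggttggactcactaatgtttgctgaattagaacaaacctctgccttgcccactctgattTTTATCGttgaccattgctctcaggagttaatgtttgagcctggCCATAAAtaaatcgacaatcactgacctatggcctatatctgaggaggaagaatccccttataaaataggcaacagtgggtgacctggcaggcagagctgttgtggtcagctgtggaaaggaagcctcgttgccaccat
Cd36: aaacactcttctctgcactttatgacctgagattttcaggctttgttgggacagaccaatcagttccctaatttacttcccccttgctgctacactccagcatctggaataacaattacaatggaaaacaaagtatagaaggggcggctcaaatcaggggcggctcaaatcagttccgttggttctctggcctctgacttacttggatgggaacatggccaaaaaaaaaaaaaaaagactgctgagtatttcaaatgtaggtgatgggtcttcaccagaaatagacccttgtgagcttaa
Fabp6: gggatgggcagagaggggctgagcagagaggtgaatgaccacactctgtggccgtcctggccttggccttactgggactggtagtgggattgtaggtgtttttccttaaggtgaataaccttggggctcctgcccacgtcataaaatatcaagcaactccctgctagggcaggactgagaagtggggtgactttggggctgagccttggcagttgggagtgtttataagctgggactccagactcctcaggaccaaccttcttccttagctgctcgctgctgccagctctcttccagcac
The Fabp1 window held 3 CDX matches, starting 227, 133 and 89 bases before the start site as the strand is printed, and 1 GATA match that lies inside the middle CDX match. Neither the Cd36 nor the Fabp6 window held a match to either motif. Of 32851 windows of the same length, 25.4% held the GATA letters and 10.9% the CDX letters. These matches describe letters in a short window only.

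RefSeq start windows were matched for 3 of the 8 factors. Pdx1 (chr5:147269847-147270146, plus strand) and Cdx2 (chr5:147307200-147307499, minus strand) are neighbours on chromosome 5, with 37.1 kb between their windows, so a genomic feature between them lies close to both. Hnf4a had 2 windows on chromosome 2, of which chr2:163506607-163506906 held 1 GATA match and 1 match to an ONECUT motif (ATNGAT, found in 21.4% of all windows), while chr2:163546905-163547204 held neither. No window of these 3 genes held the HNF4 motif searched (CAAAGNNCA, found in 6.36% of all windows).

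Gata4 was lower in the ileum than in the jejunum in all 3 cell classes. In enterocyte-marker cells it stood at 32.6 and 51.7 CPM in ileum replicates 1 and 2 and at 114 and 106 CPM in jejunum replicates 1 and 2. In cycling cells the values were 31.8 and 48.2 CPM against 153 and 188 CPM. In stem-marker cells they were 54.6 and 60.1 CPM against 272 and 142 CPM. The regions did not overlap in any class, though 2 libraries per region separate by order alone with a probability of 0.333. Ileal Gata4 was reduced rather than missing, at 2656 and 4695 UMIs in the enterocyte-marker cells alone. These segments came from the medial ileum, so the values do not describe the terminal ileum.

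**Figure D1:**
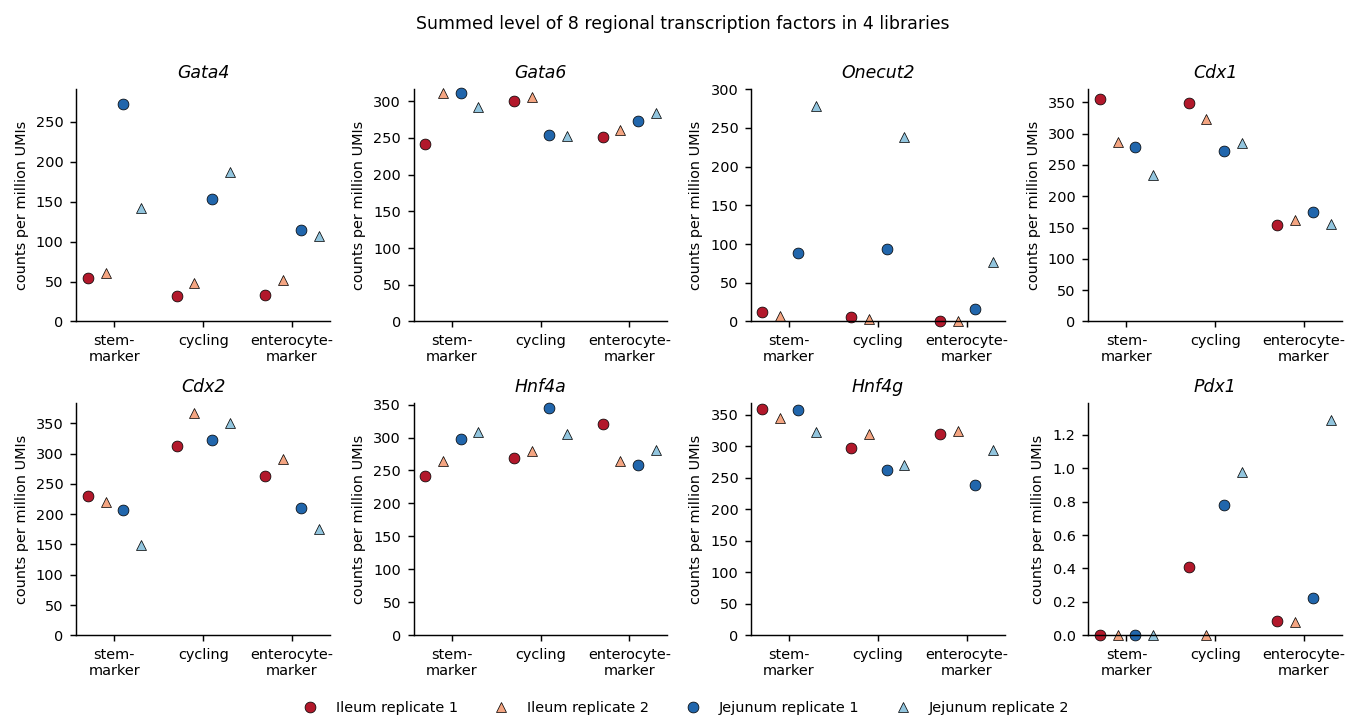
Level of each of the 8 genes (y axis, CPM, from 0) in stem-marker, cycling and enterocyte-marker cells (x axis). Each point is 1 library, with red for ileum, blue for jejunum, circles for replicate 1 and triangles for replicate 2. Gata4 and Onecut2 separate by region in every class, at 32.6 to 51.7 against 106 to 114 CPM for Gata4 in enterocyte-marker cells, while the Pdx1 axis ends near 1 CPM.

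Fitted over all genes, Gata4 fell in the ileum, with a log2 difference of -1.49 ± 0.26 (SE) in enterocyte-marker cells (2.80-fold lower, edgeR adjusted p = 0.0346), -2.16 ± 0.21 in cycling cells (4.46-fold, adjusted p = 0.000159) and -1.86 ± 0.36 in stem-marker cells (3.64-fold, adjusted p = 0.000206). Within mouse 1 the jejunal level was 3.51, 4.81 and 4.97 times the ileal level in enterocyte-marker, cycling and stem-marker cells, and within mouse 2 it was 2.06, 3.89 and 2.37 times. The cycling difference passed the threshold under all 18 alternative settings. The enterocyte call was lost without ileum replicate 1 (log2 -1.16, adjusted p = 0.0617) and without jejunum replicate 2 (-1.49, adjusted p = 0.0611), and the stem-marker call without jejunum replicate 1 (-1.32, adjusted p = 0.238) and without the crypt cells that also reached the enterocyte minimum (-1.84, adjusted p = 0.15).

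Gata6, the paralog, did not follow Gata4. Its level was 251 and 261 CPM in ileal and 273 and 284 CPM in jejunal enterocyte-marker cells, 301 and 306 against 254 and 253 CPM in cycling cells, and 242 and 311 against 311 and 291 CPM in stem-marker cells. The log2 difference was -0.23 ± 0.14, 0.20 ± 0.14 and -0.14 ± 0.30 in these classes (edgeR adjusted p = 0.319, 0.583 and 0.979). The interval of 2 SE in cycling cells ran from -0.08 to 0.49, well away from the Gata4 difference. In all 12 sums at full depth Gata6 stayed between 242 and 311 CPM. At an equal depth of 2000 UMIs per cell, its stem-marker level averaged 248 CPM (SD 77.0) in the ileum and 374 CPM (SD 1.24) in the jejunum. The fitted difference there was -0.575 ± 0.308, also without a call (edgeR adjusted p = 0.659).

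Set against each other within a library, the 2 GATA genes therefore changed proportion. Gata4 made up 11.5% (exact binomial 95% interval 11.1 to 11.9%) and 16.5% (16.1 to 17.0%) of the Gata4 and Gata6 UMIs in ileal enterocyte-marker cells, and 29.5% (28.9 to 30.1%) and 27.2% (26.5 to 27.9%) in jejunal ones. In cycling cells the share was 9.56% and 13.6% for ileum libraries and 37.5% and 42.6% for jejunum libraries. Intervals of this kind cover counting error only. Since 3′ capture can differ between genes, the share is a measure of change between libraries and not of which factor is more abundant.

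Onecut2 showed the largest regional difference of the 8 genes in every class in which a difference was tested. In enterocyte-marker cells it stood at 0.920 and 0.914 CPM in the ileum and 15.7 and 77.4 CPM in the jejunum. In cycling cells the levels were 6.11 and 3.55 CPM against 93.3 and 238 CPM. In stem-marker cells they were 11.7 and 6.68 CPM against 88.4 and 278 CPM. Both jejunum libraries exceeded both ileum libraries in all 3 classes, and jejunum replicate 2 was 2.56 to 4.92 times jejunum replicate 1, while the higher ileum library was 1.01 to 1.75 times the lower.

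The fitted differences were -5.79 ± 0.86 in enterocyte-marker cells (55.4-fold, edgeR adjusted p = 0.0256), -5.12 ± 0.47 in cycling cells (34.7-fold, adjusted p = 9.7e-05) and -4.30 ± 0.53 in stem-marker cells (19.7-fold, adjusted p = 4e-10). Within mouse 1 the jejunal level was 17.1, 15.3 and 7.55 times the ileal one in these classes, and within mouse 2 it was 84.7, 67.1 and 41.6 times. Few molecules stand behind the ileal values in the crypt classes, with 15 and 7 UMIs in cycling cells and 3 and 2 in stem-marker cells. In stem-marker cells the gene was tested only because its jejunal level passed the filter on low counts. Pooled over libraries, the stem-marker ratio of jejunum to ileum was 20.2 with an exact 95% counting interval of 8.38 to 63.4. The cycling and stem-marker calls held under all 18 alternatives, and the enterocyte call was lost without ileum replicate 1 (adjusted p = 0.0965) or ileum replicate 2 (adjusted p = 0.0785).

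At equal depth the same split appeared in shares of cells. With 2000 UMIs drawn from each cell, 14.9% and 35.7% of jejunal cycling cells held an Onecut2 UMI against 0.779% and 0% of ileal ones, where 0 of 315 cells allows a share of up to 0.952%. For Gata4 the shares in cycling cells were 23.7% and 31.3% in the jejunum and 6.23% and 9.21% in the ileum. Among 44 immune-marker cells, a class that should lack both factors, 1 UMI of each gene was found in 282631 and no cell held one at equal depth, which allows a share of up to 6.82% (3 of 44 cells, as 3 of 315 gives the limit above). Gata6, Cdx1, Cdx2, Hnf4a and Hnf4g stood at 122, 148, 131, 113 and 95.9 CPM over the 18 ileal immune-marker cells. For Gata6, Cdx2 and Hnf4a all of these UMIs came from the 9 cells of ileum replicate 1, of which 2 also reached the enterocyte minimum. At equal depth only 3, 1 and 0 of the 18 cells held a UMI of these 3 genes. Over the 26 jejunal ones they stood at 5.95, 0, 23.8, 23.8 and 11.9 CPM. The class was therefore not free of the RNA of these other factors. With so few immune-marker cells, the ileal Onecut2 shares cannot be separated from free RNA.

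**Figure D2:**
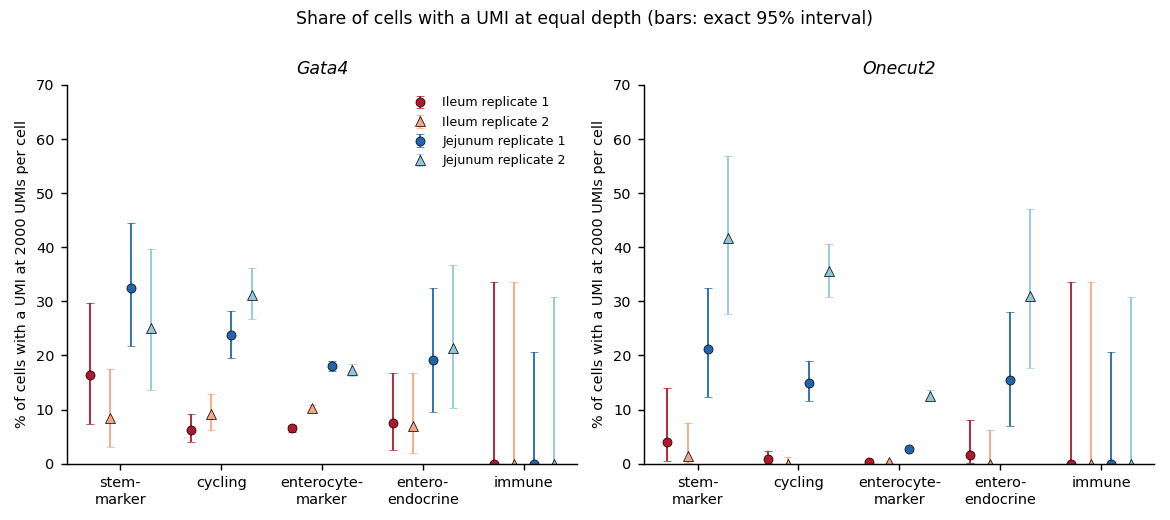
Share of cells with at least 1 Gata4 (left) or Onecut2 (right) UMI when each cell is reduced to 2000 UMIs (y axis, percent) by cell class (x axis), 1 point per library with its exact binomial 95% interval. Jejunal points lie above ileal points in the cycling and enterocyte-marker classes for both genes, with cycling cells at 23.7% and 31.3% for Gata4 in the jejunum, and the intervals in immune-marker cells are wide.

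Cdx2, required for intestinal identity of the endoderm, leaned the other way in enterocytes without passing the test. It stood at 263 and 291 CPM in ileal and 211 and 176 CPM in jejunal enterocyte-marker cells, with a log2 difference of 0.41 ± 0.15 (edgeR adjusted p = 0.152). The regions did not overlap there, and the ileum was 1.25 and 1.65 times the jejunum in mouse 1 and mouse 2. Gata6, Hnf4g and Pdx1 did not overlap in these cells either, and such a separation has a probability of 0.333 by order alone. In cycling cells the regions overlapped, at 313 and 366 against 323 and 350 CPM, and the difference was -0.04 ± 0.15 (adjusted p = 0.949). Stem-marker cells gave 230 and 220 CPM against 206 and 149 CPM (0.32 ± 0.31, adjusted p = 0.916).

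Cdx1 stood at 153 and 162 CPM in ileal and 174 and 155 CPM in jejunal enterocyte-marker cells, so the regions overlapped (log2 -0.17 ± 0.14, edgeR adjusted p = 0.445). Its cycling levels were 349 and 324 CPM in the ileum and 272 and 285 CPM in the jejunum, which did not overlap but did not pass the test (0.22 ± 0.14, adjusted p = 0.563). In stem-marker cells the levels were 355 and 287 against 278 and 234 CPM (0.30 ± 0.30, adjusted p = 0.921). Neither caudal factor was called in any class.

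The nuclear receptor pair was nearly level between regions. Hnf4a stood at 320 and 264 CPM in ileal and 259 and 281 CPM in jejunal enterocyte-marker cells, and the fitted log2 difference was 0.00 ± 0.15 (edgeR adjusted p = 0.998), with a 2 SE interval from -0.30 to 0.30. In cycling cells it was 270 and 279 CPM in the ileum and 344 and 306 CPM in the jejunum (-0.30 ± 0.15, adjusted p = 0.405), and in stem-marker cells 242 and 264 against 298 and 308 CPM (-0.28 ± 0.30, adjusted p = 0.929). The jejunal libraries were the higher ones in both crypt classes without a call.

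Hnf4g stood at 319 and 323 CPM in ileal and 239 and 293 CPM in jejunal enterocyte-marker cells (log2 0.16 ± 0.17, edgeR adjusted p = 0.57). Cycling cells held 297 and 319 against 263 and 270 CPM (0.16 ± 0.14, adjusted p = 0.713), and stem-marker cells 359 and 344 against 357 and 322 CPM (0.03 ± 0.30, adjusted p = 0.994). Intervals of 2 SE in the enterocyte-marker cells, -0.18 to 0.50 for Hnf4g and -0.30 to 0.30 for Hnf4a, leave no room for a difference of the Gata4 size.

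Pdx1 was close to the detection limit. Its UMIs numbered 7 and 7 in ileal and 12 and 54 in jejunal enterocyte-marker cells, or 0.0859 and 0.0771 against 0.223 and 1.29 CPM. The log2 difference of -3.28 ± 0.92 did not pass the test (edgeR adjusted p = 0.0875), and it was called with the animal as a block (-3.08, adjusted p = 0.0304) and without jejunum replicate 1 (-4.09, adjusted p = 0.00576). Jejunum replicate 2 held most of the molecules, and the other jejunum library was 2.60 times the ileum library of its mouse. Cycling cells held 6 Pdx1 UMIs in all and stem-marker cells none, where 3 UMIs over the 4 libraries would equal 2.59 CPM, so neither class was tested.

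**Figure D3:**
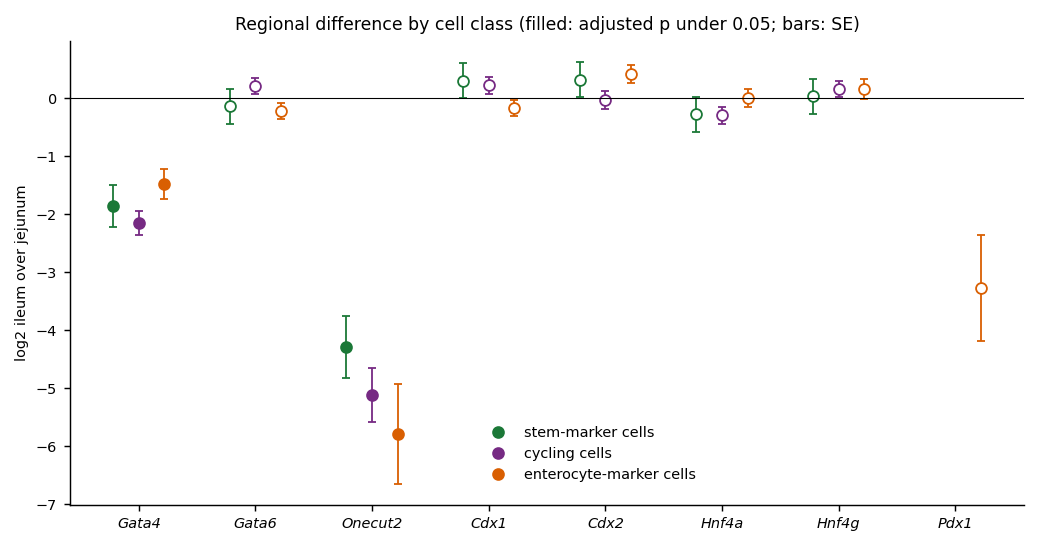
Fitted log2 ratio of ileum over jejunum (y axis) for each gene (x axis) in stem-marker, cycling and enterocyte-marker cells, with bars of 1 SE. Filled points passed an adjusted p of 0.05 in edgeR's quasi-likelihood test, and these are Gata4 (-1.49 to -2.16) and Onecut2 (-4.30 to -5.79) in all 3 classes, while the open points of Gata6, Cdx1, Cdx2, Hnf4a and Hnf4g lie within 0.5 of 0. Pdx1 has a value in enterocyte-marker cells only.

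Counted together, 2 of 8 factors were called in enterocyte-marker cells, where 7.04% of 19672 genes were called (2.97% as lower in the ileum). In cycling cells 2 of 7 tested factors were called against 2.48% of 12166 genes (1.19% as lower), and in stem-marker cells 2 of 7 against 1.65% of 6194 genes (1.03% as lower). All of these calls were lower in the ileum, although 57.7% of the called genes were higher there in enterocyte-marker cells (68.1% when scaled by total counts without TMM, which moved the median of all genes from -0.01 to 0.10). In stem-marker cells Onecut2 passed the filter on low counts through its jejunal level alone. Its place in that count, and the direction of its call there, therefore partly follow from the filter. The median log2 difference over the tested factors was -0.20, -0.04 and -0.14 in the 3 classes, beside -0.01, 0.00 and 0.01 over all genes tested. Blocking by animal raised the calls to 3337 genes (17%) in enterocyte-marker cells and 759 (6.24%) in cycling cells.

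Whether the regional difference itself changed between crypt and villus cells was tested as an interaction, with the library as a block. The Gata4 difference was larger in cycling than in enterocyte-marker cells by 0.66 ± 0.18 on the log2 scale, or 1.58-fold (coded as -0.66, edgeR adjusted p = 0.0309), and 1 of 8 factors was called in this test against 7.09% of 19018 genes. This call was lost in sums at equal depth (adjusted p = 0.0785), with mitochondrial share under 10% (0.0619), with equal numbers of cells (0.0625), by DESeq2 (0.0514, with 5.11% of genes called) and without ileum replicate 1 (0.112), ileum replicate 2 (0.135) or jejunum replicate 2 (0.259), while the direction held in each. For Onecut2 the interaction was 0.42 ± 0.49 (adjusted p = 0.681), which leaves a 2 SE interval from -0.56 to 1.41.

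Cdx2, Gata6 and Cdx1 gave interactions of -0.48 ± 0.15, 0.42 ± 0.15 and 0.37 ± 0.15 (edgeR adjusted p = 0.0698, 0.106 and 0.152). Cdx2 passed under 6 of the alternatives, among them the one without jejunum replicate 1 (-0.62, adjusted p = 0.0321), and Gata6 with mitochondrial share under 10% (0.54, adjusted p = 0.0398). Between stem-marker and enterocyte-marker cells edgeR called 0 of 7 tested factors, 0 also had an unadjusted p under 0.05, and DESeq2 called 0, beside 0.687% of 17165 genes called by edgeR and 0.262% by DESeq2 (55.9% of the edgeR calls were positive, 66.4% with DESeq2 size factors).

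Within libraries, several factors also differed between crypt and villus cells. Onecut2 was higher in cycling than in enterocyte-marker cells in 4 of 4 libraries of the full sums, by 3.08 to 6.64 times, where the ileal ratios rest on 15 and 7 cycling UMIs. In sums at equal depth the order held in 3 of 4 libraries, at 83.8 against 14.8 CPM and 236 against 75.0 CPM in the jejunum, and ileum replicate 2 held no Onecut2 UMI in cycling cells. The mean log2 ratio over the 4 libraries was 1.81 in full sums and 0.96 at equal depth. Cdx1 was higher in cycling cells in 4 of 4 libraries, by 1.56 to 2.27 times, and in stem-marker cells by 1.51 to 2.31 times. These orders between classes are given as counts of libraries, with no test.

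Cdx2 had its highest level in cycling cells. It was 1.19 to 1.99 times the enterocyte level there in 4 of 4 libraries, and the stem-marker level was 0.426 to 0.736 times the cycling level in 4 of 4. Cdx1 did not show this drop, with a stem-marker level of 0.821 to 1.02 times the cycling one. Many cycling cells also met the stem minimum, so these ratios do not set stem against non-stem cells. Cdx1 therefore made up 44.8 to 52.7% of the Cdx1 and Cdx2 UMIs in cycling cells and 56.6 to 61.1% in stem-marker cells, and 35.7 to 36.8% in ileal and 45.3 to 46.8% in jejunal enterocyte-marker cells.

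Gata4 was higher in stem-marker than in enterocyte-marker cells in 4 of 4 libraries, by 1.16 to 2.38 times, where the ileal stem-marker values rest on 14 and 18 UMIs. Its cycling level exceeded the enterocyte level only in the jejunum libraries (0.933 to 1.76 times over all 4). Hnf4g was 1.08 to 1.36 times higher in stem-marker than in cycling cells in 4 of 4 libraries, from 92 to 109 stem-marker UMIs per library. Gata6 and Hnf4a differed in direction between libraries, with cycling over enterocyte ratios of 0.889 to 1.20 and 0.842 to 1.33.

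Enterocyte-marker cells were further divided into 3 equal parts by their balance of villus tip over villus bottom markers. From the lower to the upper part, Gata4 fell from 131 to 97.3 CPM in jejunum replicate 1 and from 119 to 93.8 CPM in jejunum replicate 2, and was 33.8 and 32.1 CPM and 54.1 and 49.8 CPM in the ileum libraries. Onecut2 went from 17.3 to 13.8 CPM and from 91.3 to 64.4 CPM in the jejunum libraries, and was 0.745 and 1.03 CPM and 0.737 and 1.17 CPM in the ileum libraries. The lower part was 1.25 to 1.42 times the upper part for Onecut2 and 1.27 to 1.34 times for Gata4 in the jejunum. In the middle part Gata4 stood at 31.9 and 50.8 CPM in the ileum and 112 and 105 CPM in the jejunum, and Onecut2 at 0.982 and 0.883 against 15.8 and 75.3 CPM. The regions did not overlap for either gene in any of the 3 parts. Cdx2 was 1.06 to 1.16 times higher in the lower than in the upper part in 4 of 4 libraries.

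**Figure D4:**
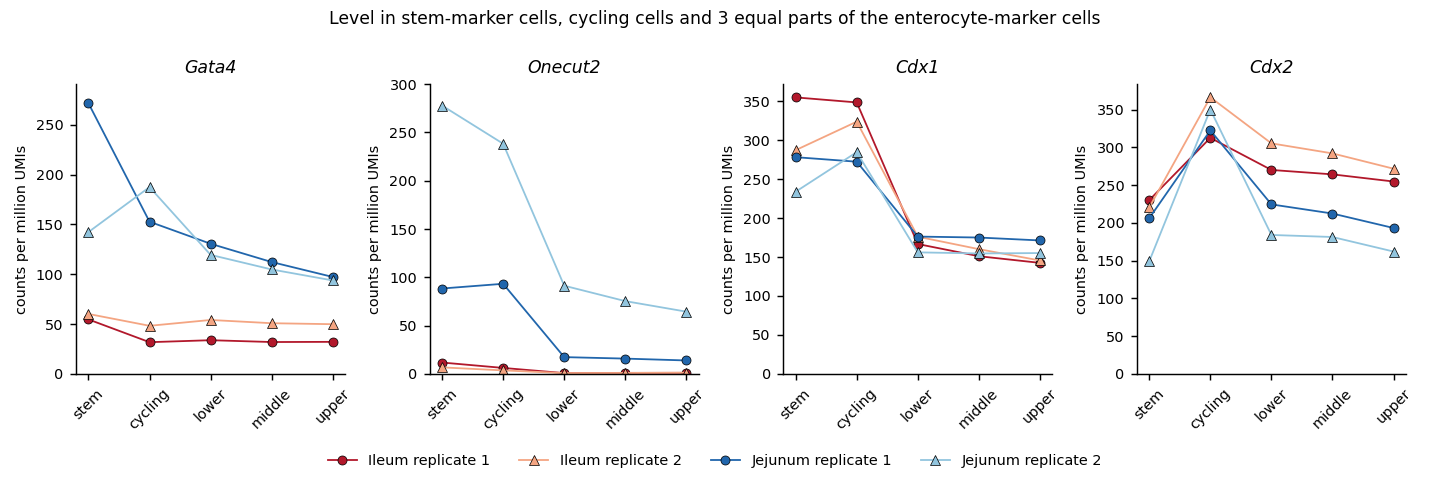
Level (y axis, CPM, from 0) of Gata4, Onecut2, Cdx1 and Cdx2 in stem-marker cells, cycling cells and the lower, middle and upper part of the enterocyte-marker cells (x axis), with 1 line per library. Jejunal Gata4 ends at 97.3 and 93.8 CPM in the upper part, still above the ileum, Cdx1 drops by 1.56 to 2.27 times from cycling to enterocyte-marker cells, and Cdx2 peaks in cycling cells.

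Enteroendocrine-marker cells, the hormone-producing lineage, were not tested between regions and are described by pooled counts. Pooled over 124 ileal and 94 jejunal cells, Gata4 stood at 23.6 and 119 CPM, a ratio of jejunum to ileum of 5.06 (exact 95% counting interval 2.66 to 10.4). Onecut2 had 1 UMI in the ileum and 64 in the jejunum, a ratio of 77.8 (13.5 to 3120). Pdx1 reached 11.9 CPM in these cells over all 4 libraries, from 11 UMIs, against 0.596 CPM in cycling cells, and its regional ratio was 1.01 (0.245 to 3.98).

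Related factors and cofactors were read from a list of 18 genes. In enterocyte-marker cells 13 were tested, of which 1 rose and 1 fell in the ileum, beside 7.04% of all genes called. The list median was -0.08 on the log2 scale. Zfpm1 (FOG1), a cofactor that binds GATA factors, stood at 32.8 and 50.7 CPM in the ileum and 101 and 135 CPM in the jejunum (-1.60 ± 0.29, edgeR adjusted p = 0.0378). It also fell in ileal cycling cells, at 57.4 and 52.3 against 94.0 and 106 CPM (-0.92 ± 0.17, adjusted p = 0.0116), as 1 of 11 genes tested, beside 2.48% of all genes called. Foxa1, a pioneer factor of endoderm, rose, at 41.0 and 35.1 against 16.6 and 17.0 CPM (1.07 ± 0.14, adjusted p = 0.0228). None of 8 tested was called in stem-marker cells by edgeR, beside 1.65% of all genes, with 1 at an unadjusted p under 0.05.

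Among 48 other intestinal transcription factors, 4 rose and 1 fell in ileal enterocyte-marker cells (median -0.03), beside 7.04% of all genes called. Those that rose included Ehf, an epithelial ETS factor (2.21 ± 0.32, edgeR adjusted p = 0.0253), Srebf2, the regulator of sterol synthesis (1.36 ± 0.24, 0.034), and Vdr, the vitamin D receptor (1.24 ± 0.24, 0.0439). Nr0b2 (SHP), a bile acid-responsive repressor, fell by 2.87 ± 0.40 (adjusted p = 0.0236), from 46.8 and 72.8 CPM in the jejunum to 6.26 and 11.3 CPM in the ileum.

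In cycling cells, where 2.48% of all genes were called, 2 of 44 rose and 1 fell (median 0.11). Maf rose by 0.74 ± 0.15 (edgeR adjusted p = 0.0187), a call that passed in 14 of 18 alternatives, and Creb3l3, a membrane-bound activator of lipid genes, fell by 1.35 ± 0.22 (0.00637). Creb3l3 was also the 1 of 38 that fell in stem-marker cells (-1.28 ± 0.32, adjusted p = 0.0102), where 1.65% of all genes were called. That call passed in only 8 of 18 alternatives, with an adjusted p of up to 0.576, and was lost on leaving out any 1 library. For Ehf, Srebf2 and Vdr the regional difference was lower in cycling than in enterocyte-marker cells by 2.42, 1.17 and 1.19 on the log2 scale (edgeR interaction adjusted p = 7.6e-07, 0.000564 and 0.00114). These 3 genes thus differed less between regions in cycling cells, and Gata4 differed more.

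HOX genes, which set position along the body axis, were mostly below the filter on low counts. Of 39, 15 were tested in enterocyte-marker cells and edgeR called 0, beside 7.04% of all genes, with 8 at an unadjusted p under 0.05. The list median was 0.74. In cycling cells 6 were tested (median 2.01) and 3 rose in the ileum, beside 2.48% of all genes called. Hoxd4 stood at 35.4 and 32.5 against 13.2 and 4.24 CPM (1.94 ± 0.37, edgeR adjusted p = 0.0147). Hoxb6 stood at 31.8 and 10.2 against 3.89 and 2.9 CPM (2.58 ± 0.52, 0.0187). Hoxb5 stood at 13.0 and 4.57 against 0 and 0.978 CPM (3.92 ± 0.86, 0.0273). A scarce gene can pass the filter through 1 region alone, so the medians and counts of this list partly follow from the filter. No HOX gene passed the filter in stem-marker cells.

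Absorptive genes typical of the proximal intestine, 15 in the list, were lower in the ileum where called, with 1 exception. In enterocyte-marker cells 7 fell, 1 rose and 7 were not called (median -1.21), beside 7.04% of all genes called. Cd36 stood at 3.09 and 2.53 CPM in the ileum and 153 and 169 CPM in the jejunum (-5.95 ± 0.19, edgeR adjusted p = 0.00248), and Cybrd1, a duodenal ferric reductase, at 5.85 and 8.09 against 39.3 and 46.6 CPM (-2.73 ± 0.24, 0.0138). Apolipoprotein and lipid synthesis genes fell less, with Apoa4 at -1.60, Apoc3 at -1.53, Dgat2 at -1.21, Acsl5 at -0.95 and Mogat2 at -0.91. Mgam, an intestinal glucosidase, rose by 1.36 ± 0.17 (adjusted p = 0.0204).

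In the crypt classes 5 of 14 tested proximal genes fell in cycling and 5 of 11 in stem-marker cells, with Mgam again the 1 that rose (medians -0.67 and -1.07). Over all genes, 2.48% and 1.65% were called in these classes. Fabp1, whose start is printed above, stood at 12.2 and 117 CPM in ileal and 650 and 804 CPM in jejunal cycling cells (-3.57 ± 0.60, edgeR adjusted p = 0.00671), and at 11.7 and 114 against 1401 and 2295 CPM in stem-marker cells (-4.85 ± 0.39, adjusted p = 4.8e-19). In enterocyte-marker cells it was not called, at 126 and 1083 against 6369 and 6219 CPM (-3.45 ± 0.97, adjusted p = 0.0903). The cycling call was lost with classes called at 3000 UMIs (log2 -3.09) and by DESeq2 (adjusted p = 0.26), and the log2 value ran from -5.96 to -2.67 over all alternatives. The jejunal crypt classes held more cells that also reached the enterocyte minimum, at the shares given above, and without these cells Fabp1 was at log2 -3.43 in cycling (adjusted p = 0.0201) and -3.60 in stem-marker cells (adjusted p = 0.000184). Without them the stem-marker calls of Apoc3 (-1.07, adjusted p = 0.242), Lct (-0.63, 0.794) and Acsl5 (-0.15, 0.958) were lost. Apoa4, Apoc3 and Lct belong to the enterocyte markers by which cells were sorted, so their values in the crypt classes are tied to that choice.

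Of 14 genes typical of the distal intestine, 3 rose and 2 fell in ileal enterocyte-marker cells (median 0.35), beside 7.04% of all genes called. Fabp6 stood at 203 and 362 CPM in the ileum and 0.427 and 0.286 CPM in the jejunum (9.51 ± 0.48, edgeR adjusted p = 0.0121), Guca2a, the guanylin precursor, at 2250 and 1935 against 251 and 58.0 CPM (3.67 ± 0.67, 0.0378), and Slc10a2, the apical bile acid carrier, at 10.7 and 13.2 against 2.79 and 4.48 CPM (1.61 ± 0.30, 0.041). Slc51b and Abcc3, which export bile acids and conjugates across the basolateral membrane, fell by 1.46 and 1.70. In cycling cells 3 of 14 rose and none fell, among them Guca2a (4.56 ± 0.37, adjusted p = 3.5e-05) and Fabp6, at 55.8 and 49.7 CPM in the ileum and a single UMI in each jejunum library. In stem-marker cells 2 of 12 tested rose, Fabp6 and Guca2a (4.07 ± 0.40, adjusted p = 2.9e-14), and Slc51b fell (list medians 0.65 in cycling and 0.56 in stem-marker cells). Over all genes, 2.48% were called in cycling and 1.65% in stem-marker cells. The Slc51b call passed in only 5 of 13 alternatives, with log2 values from -2.94 to -0.73 and an adjusted p of up to 0.944, and was lost on leaving out any 1 library.

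The genes whose level over the 12 sums (4 libraries by 3 classes) was most like that of each factor were taken by Pearson's r of log2(CPM + 5) among 7582 genes. These sums share libraries, depth and cell classes, and the values are descriptions. Nearest to Gata4 were Prdm16 (r = 0.94), Samhd1 (0.92) and Cym (0.90), and nearest to Onecut2 were Cym (0.97) and Prdm16 (0.92). Prdm16, a zinc finger transcription factor, averaged 27.5 CPM over the ileal and 142 CPM over the jejunal sums, and Cym, the milk-clotting protease chymosin, 2.48 and 226 CPM.

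Cdx1 was nearest to Ythdc1, Luc7l3 and Rps15 (r = 0.99, 0.98 and 0.98) and Cdx2 to Psmc2, Pdcd2l and Reep4 (0.96, 0.94 and 0.92), genes that differed between cell classes more than between regions. Likeness was weaker for the factors with little variation. Gata6 reached 0.83 with Slc6a20a, Hnf4g 0.82 with Diaph1 and Hnf4a 0.78 with Ets2.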

How the data were processed

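UMI counts per gene and called cell were deposited by the authors, who counted the 4 PIPseq libraries with PIPseeker at sensitivity level 3. The submitters' processing notes name GRCm39, and the annotation version is not given in the sources used here. Cells with 1000 to 6000 genes and under 20% mitochondrial UMIs were kept, and genes needed 3 cells. Cells with at least 2000 UMIs were reduced to 2000 at random and classed by how many marker genes they showed. These minimums were chosen with the data in view, and 27 to 54 cells per library lay at the cycling minimum with 51 to 74 just below it. Doublets were not removed, and leaving out the 6% of cells with the most UMIs per library was tried instead.

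Full counts were summed per library and class, so the library is the unit. Regions were compared, ileum over jejunum, with the edgeR 4.0.16 quasi-likelihood test (R 4.3.3, limma 3.58.1; filterByExpr, TMM, region as the only term), fitted on all genes with Benjamini-Hochberg adjustment over all genes tested, and a gene was called at an adjusted p under 0.05. DESeq2 1.42.0 was an alternative. Interactions used 8 sums with the library as a block. Scripts ran in Python 3.11.15 with matplotlib 3.10.9, numpy 2.4.6, pandas 2.3.3 and scipy 1.17.1 and were tested on simulated data. Same-numbered libraries came from the same animal, and their deviations from the region means correlated at 0.46, 0.37 and 0.096 over genes in enterocyte-marker, cycling and stem-marker cells. With 2 mice, p-values rest on 2 libraries per region, also for the interactions, whose 8 sums come from the same 4 libraries. They also rest on a spread estimated with information shared over all genes, and do not measure the spread between mice in general.

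All members are named, with the called genes of each list (at most 8 per list and comparison, by adjusted p) and, for members with a mean of at least 20 CPM, the 3 genes most like them; some genes that this rule selects are not reported here. The members and lists were chosen with earlier results of these data known. Leaving out each library, the animal block, equal-depth sums, another class depth (3000 UMIs), stricter markers, a mitochondrial share under 10%, no upper gene limit, equal cell numbers, another random draw and other scalings and filters were tried. Reads of the paralogs can be told apart only as far as the authors' counting did so.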

Additional observations from a re-analysis of the deposited data

Results flagged for a closer look

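The regional difference of Gata4 differed between cell classes by a test of the difference itself. It was -0.66 on the log2 scale (ileum over jejunum in cycling cells minus the same in enterocyte-marker cells, SE 0.18, edgeR adjusted p = 0.0309), and the jejunal excess was larger in cycling cells in 2 of 2 mice, at 4.81 against 3.51 times in mouse 1 and 3.89 against 2.06 times in mouse 2. The adjusted p ranged from 0.00689 to 0.259 over 17 alternatives, with 10 of them past the threshold. Cycling cells of the jejunum also held more cells that reached the enterocyte minimum, 22.2 to 24.0% against 10.2 to 12.2% in the ileum, and without these cells the difference was -0.72 (adjusted p = 0.0126).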

How the results depend on the processing

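Results were scored as the same in 1357 of 1526 recomputed single-gene values and in 128 of 176 recomputed counts. Fitted differences needed the same direction and side of the threshold. Ratios of cycling over enterocyte-marker level needed a shift below the standard deviation between libraries, whatever their sign, and counts a limited fold change. Where a cause is not given by the setting itself, the cause was not tested. The number of factors called stayed at 2 in cycling cells and at 0 for the stem-marker interaction under every setting run. Leaving out each library in turn gave 0 to 3 called factors in enterocyte-marker, 2 to 2 in cycling and 1 to 2 in stem-marker cells and 0 to 2 in the cycling interaction, and 223 to 1646, 151 to 515, 50 to 118, 539 to 1370 and 29 to 111 (stem-marker interaction) called genes. Stem-marker cells had 1 called factor without the crypt cells rich in enterocyte markers. In the cycling interaction the factors called were 0 in equal-depth sums, with equal numbers of cells and by DESeq2, and 2 with no upper gene limit, without the 6% of cells with the most UMIs, without crypt cells rich in enterocyte markers, with total counts and with no filter on low counts.

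Called genes moved to 3090 (DESeq2) and 3337 (animal block) in enterocyte-marker cells, to 99 (equal-depth sums), 192 (stricter markers), 187 (without crypt cells rich in enterocyte markers), 676 (no filter) and 759 (animal block) in cycling cells, and to 26 (equal-depth sums), 176 (3000 UMIs), 34 (stricter markers), 51 (equal cells), 29 (without rich crypt cells), 66 (another draw) and 34 (DESeq2) in stem-marker cells. They moved to 516 (equal-depth sums) in the cycling interaction and to 51 (equal-depth sums), 70 (3000 UMIs), 76 (mitochondrial share under 10%) and 45 (DESeq2) in the stem-marker interaction. Apart from Pdx1, the block changed no call of the 8 factors.

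Sign changes of fitted differences occurred only among factors not called in that comparison. For Hnf4a in enterocyte-marker cells the log2 value was -0.022, -0.020, -0.071, -0.0033, -0.0017, -0.0017, -0.094 and -0.079 (equal depth, 3000 UMIs, low mitochondrial share, equal cells, DESeq2 size factors, DESeq2, without ileum replicate 1, without jejunum replicate 1), and for Hnf4g -0.0036 (without jejunum replicate 1; up to 0.37 without jejunum replicate 2). Cdx2 in cycling cells turned to 0.066, 0.015, 0.092 and 0.018 (equal depth, total counts, without ileum replicate 1, without jejunum replicate 2). In stem-marker cells Gata6 turned to 0.056, 0.16 and 0.016 (stricter markers, without rich crypt cells, without ileum replicate 1) and Hnf4g to -0.22, -0.0092 and -0.061 (another draw, without ileum replicate 1, without jejunum replicate 2). Leaving out 1 library otherwise gave -0.35 to 0.016 (Gata6) and -0.061 to 0.11 (Hnf4g) there. In the cycling interaction Onecut2 turned to -1.23, -0.067 and -0.18 (equal depth, without ileum replicate 1, without jejunum replicate 2), Hnf4g to 0.011, 0.043, 0.018 and 0.14 (3000 UMIs, low mitochondrial share, no upper gene limit, without jejunum replicate 1) and Pdx1 to -3.60, -2.89, -3.98 and -0.40 (3000 UMIs, low mitochondrial share, without ileum replicate 1, without jejunum replicate 2), with highest values on leaving out 1 library of 0.88 (Onecut2) and 2.00 (Pdx1). In the stem-marker interaction Gata6 turned to -0.40, -0.0037, -0.054 and -0.019 (equal depth, total counts, without ileum replicate 2, without jejunum replicate 2), Onecut2 to -0.85 (3000 UMIs), Cdx2 to 0.19, 0.047 and 0.043 (3000 UMIs, without ileum replicate 2, without jejunum replicate 1), Hnf4g to 0.011, 0.25 and 0.098 (3000 UMIs, without rich crypt cells, without jejunum replicate 1) and Gata4 to 0.12 (without jejunum replicate 1), with the other end of the range on leaving out 1 library at 0.17, -0.25, -0.39 and -0.75 for Gata6, Cdx2, Hnf4g and Gata4. The alternatives chosen after seeing the data were leaving out the rich crypt cells, leaving out a library for the interactions, and another draw. Few UMIs stand behind Pdx1 and ileal Onecut2.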

Other observations

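In the interaction of region and class, 7.09% of 19018 genes were called between cycling and enterocyte-marker cells, 40.6% of them positive. Of 15 proximal absorptive genes tested, 4 had a regional difference that was less negative in cycling than in enterocyte-marker cells and none one that was more negative, while 11 were not called. These were Cd36 (3.22 ± 0.64, edgeR adjusted p = 0.00378), Mogat2, an acyltransferase of fat absorption (0.75 ± 0.20, 0.0251), Cybrd1 (1.90 ± 0.53, 0.0357) and Dgat2, which makes triglyceride (0.68 ± 0.19, 0.036). In cycling cells Cd36 stood at 2.44 and 2.54 CPM in the ileum and 19.4 and 12.1 CPM in the jejunum. Cybrd1 stood at 2.85 and 4.06 against 7.77 and 4.24 CPM, so both interactions rest on few ileal molecules. The median over the list was 0.46, beside 0.00 over all genes tested. Zfpm1, the GATA cofactor, also differed less between regions in cycling cells (0.70 ± 0.21, edgeR adjusted p = 0.0498), a call at the edge of the threshold. No interaction of a gene outside the 8 factors was checked under the alternative settings.

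Among the other transcription factors, 9 of 48 had a called interaction between cycling and enterocyte-marker cells, 2 positive and 7 negative, beside the 7.09% called over all genes. The positive ones were Pparg (1.51 ± 0.29, edgeR adjusted p = 0.00277) and Nr0b2 (1.60 ± 0.46, 0.0414). Creb3l3 and Tfeb, a regulator of lysosomal genes, were among the negative ones, at -0.81 ± 0.20 (0.0175) and -0.93 ± 0.25 (0.0258).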
